A study of Homo sapiens with 6 samples.

Results

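The transcripts described here are those of the DEAD and DEAH box RNA helicases, the genes whose symbol on the array was DDX or DHX followed by a number. DHX9 was left out, and 55 of the 37879 targets of the array remained, where 25233 targets carried a gene symbol. The symbols also took in DDX11 and DDX12, listed here as DNA helicases, and DDX26B, whose current symbol is INTS6L. These are counted among the 55 helicases all the same. They were measured in RNA that came down with an anti-FLAG antibody from HEK293T cells, a line of human embryonic kidney origin. The control IP group came from cells given the empty vector, and the Stau1 IP group from cells given a plasmid for Stau155-FLAG, the shorter isoform of the double-stranded RNA-binding protein Stau1 with a FLAG tag. All cells carried a plasmid, were labelled as prometaphase after nocodazole at 50 ng/ml for 15 h, where the methods give a longer time, and 3 arrays were made for each group. The tagged protein was made from a plasmid in cells that also have their own Stau1, and the comparison shows which of these transcripts were more or less abundant in the Stau1 immunoprecipitate than in what the antibody brings down without it.

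DEAD and DEAH box proteins use ATP to separate short RNA duplexes or to push proteins off RNA, and most of them act at a defined step in the life of an RNA. In dividing cells the larger groups work in the nucleolus, where pre-rRNA is folded and cut, and in the spliceosome, where each remodelling step has its own helicase. Others start translation on structured mRNAs, take mRNAs out of the nucleus, hold them in a repressed state or detect viral RNA. Stau1 binds double-stranded stretches of mRNAs and takes part in their transport, translation and decay. What was measured is the mRNA of each helicase in the immunoprecipitate, not the helicase protein.

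The arrays themselves set limits that hold for all the values below. The arrays detected between 11635 and 13054 targets each at a detection p under 0.05, and each of them had a median of 41 beads per target. LIN28B, VIM, NEFM and NEFL, 4 of 5 markers of HEK293T cells, were detected on all 6 arrays, as were all 5 mitotic markers. Of 7 markers of other cell types, ALB, PTPRC, HBB and CD3E were detected on no array, and the summed signal of the 7 ranged from 828.7 to 932.4 on the control IP arrays and from 775.4 to 994.7 on the Stau1 IP arrays. STAU1 read 2499, 3246 and 2758 in control IPs 1 to 3 and 2845, 1857 and 3130 in Stau1 IPs 1 to 3, a log2 fold change of -0.15 with an adjusted p of 0.882 by limma, and of 0.08 without both arrays numbered 2. Whether its probe lies in the part that the plasmid carries is not shown by the table, so STAU1 does not check the labels. A single value of the array cannot tell less transcript bound from less transcript in the cell or fewer cells that hold it.

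The labels of the arrays numbered 2 were not settled by the data. Over the 39 helicases detected on every array, the median absolute log2 difference between Stau1 IP arrays 1 and 3 was 0.06. It was 0.42 between Stau1 IP arrays 1 and 2 and 0.44 between arrays 2 and 3. Control IP array 2 differed by 0.18 and 0.17 from Stau1 IP arrays 1 and 3, and by 0.21 and 0.25 from control IP arrays 1 and 3. The array labelled Stau1 IP 2 was closest to control IP array 3, at 0.23. The groups were kept as labelled, the arrays numbered 2 are given singly, and the value without both of them is given for each helicase compared. Stau1 IP arrays 1 and 3 differed by more than the error between beads for 29% of the 9884 targets detected on all arrays but for only 4 of the 39 helicases, or 10.3%, and they were kept as separate samples. The labels do not say whether replicates came from separate cultures, so p-values measure the spread between these arrays, which may be technical.

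Most helicase transcripts were present in both immunoprecipitates. Of the 55, 39 were detected on all 6 arrays, or 70.9%, where 26.1% of all targets and 37.4% of targets with a symbol were. Between 41 and 44 were detected on each control IP array, and 43, 40 and 47 on Stau1 IP arrays 1 to 3. The 8 that were detected on no array, or 14.5% where 59.5% of all targets were, were DDX25, DDX4, DDX43 and DDX53 of the germline helicases, DDX60 and DHX58 of the antiviral ones, DDX3Y and DHX34. The other 8 were detected on some arrays. Absence by this rule is not always low signal, since DHX34, a helicase of nonsense-mediated decay, had signals between 203 and 290 and was detected on none. In the annotation of the array, all 51 helicases with a function term carried ATP binding, against 9.09% of annotated targets, and 10 of 25 with a process term carried RNA splicing, against 1.46%. Helicase activity was given for only 5 of the 51, against 0.317%, and rRNA processing for only 2 of the 25, against 0.447%. A nuclear location was given for 32 of 42 and a nucleolar one for 6 of 42, against 31.1% and 3.22%.

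**Figure D1:**
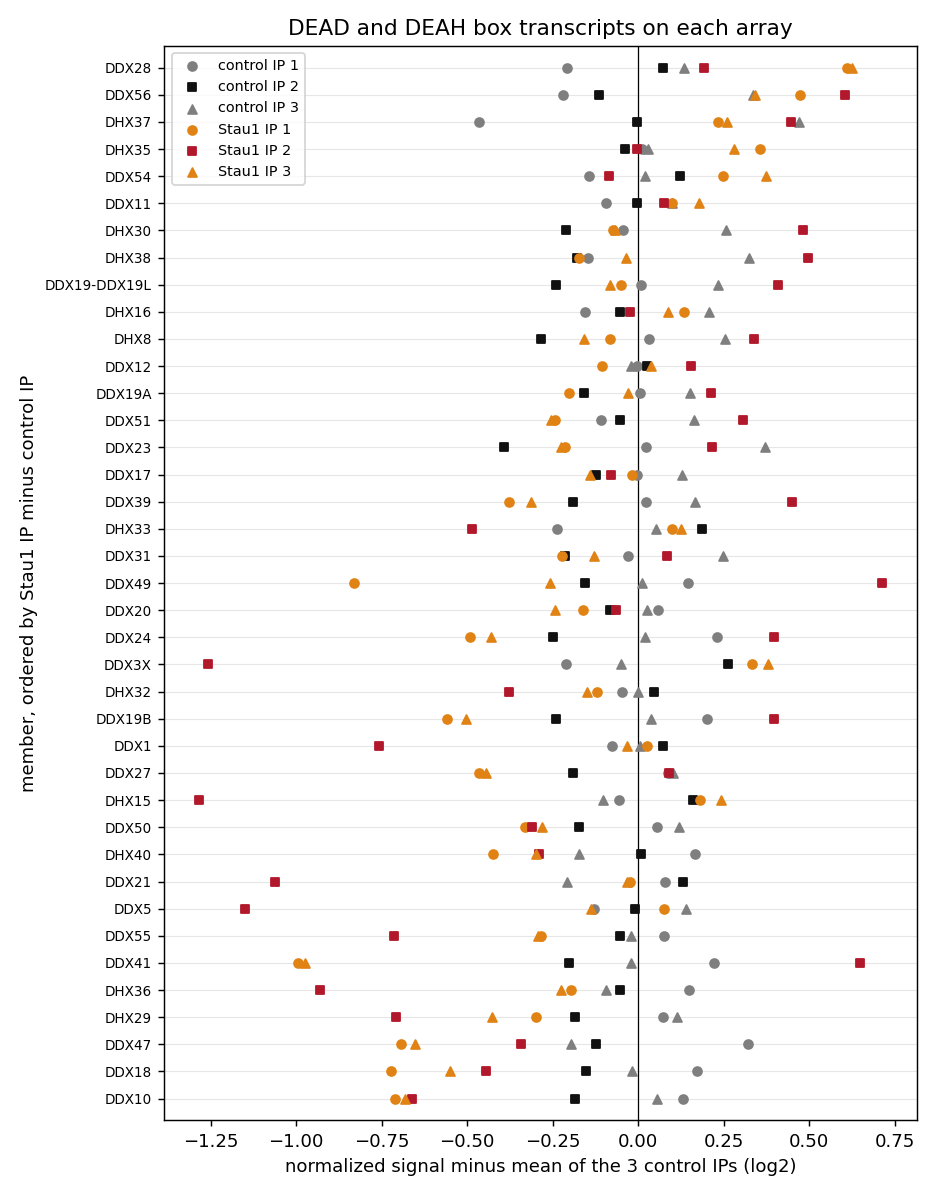
Normalized log2 signal of the 39 helicases detected on all 6 arrays, as each array's difference from the mean of the 3 control IP arrays. Stau1 IP array 2 departs from Stau1 IP arrays 1 and 3, which resemble each other and differ by a median of 0.06.

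By the labels, no helicase transcript passed the call rule that the methods name, more than 2.5-fold at a p below 0.05 before adjustment. In limma 0 of 55 were enriched, beside 0.00264% of all targets, and 0 were depleted, beside 0% of all targets. With Benjamini-Hochberg adjustment over all targets 0 helicases passed, beside 0.00264% of all targets, and their adjusted p-values ran from 0.138 to 0.998. At an unadjusted p under 0.05 in limma, 2 helicases were higher in the Stau1 IPs, or 3.64% against 3.9% of all targets, and 12 were lower, or 21.8% against 5.02%. Among targets detected on all 6 arrays, 9 of 39 helicases were lower, or 23.1%, against 13% of targets, and 2 of 39 were higher, or 5.13%, against 9.37%. The 3 Stau1 IP arrays lay wholly below the 3 control IP arrays for 11 helicases, where 7.65% of all targets did, and wholly above them for 2, where 6.76% did. Among the 39 they lay wholly below for 9, or 23.1% against 13.7% of the targets detected on all arrays, and wholly above for 2 against 9.28%. Over all 55 the median log2 fold change was -0.08, with 35 below 0, or 63.6%, whereas the median over all targets was 0.003 with 48% below 0. For the 39 it was -0.13 with 27 below 0, or 69.2%, beside -0.0054 and 50.9% for the targets detected on all 6 arrays. Single values ran from -0.69 to 0.48, and the transformation behind them understates the changes of dim transcripts.

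**Figure D2:**
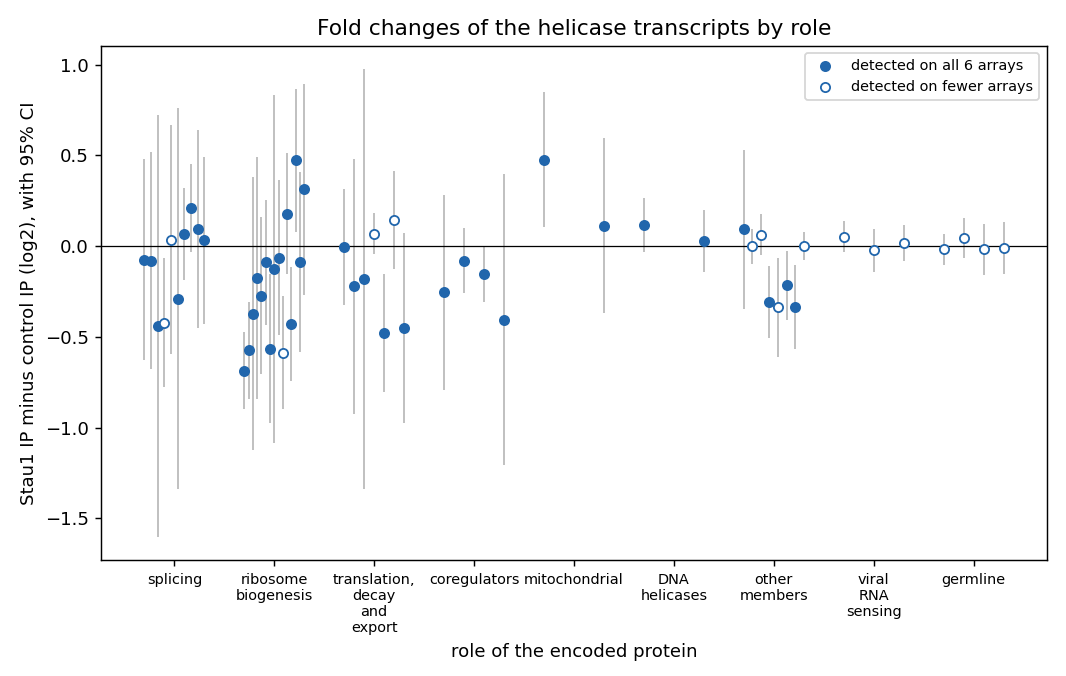
Log2 fold change of each helicase, Stau1 IP minus control IP over 3 arrays each, with its 95% confidence interval from limma, grouped by role. Filled points were detected on all 6 arrays and open points on fewer, and the helicases of ribosome biogenesis hold both the lowest value, DDX10 at -0.69, and one of the highest, DDX56 at 0.47.

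The nucleolar helicases of ribosome biogenesis held the lowest values. Of the 15, 14 of which were detected on all 6 arrays, 12 had a log2 fold change below 0, where 48% of all targets and 50.9% of detected targets did. At an unadjusted p under 0.05 in limma 5 of the 15 were lower, where 5.02% of all targets and 13% of detected targets were, and 1 was higher, where 3.9% and 9.37% were. Their median was -0.18, and across the settings tried it lay between -0.39 and -0.15, with 10 to 12 below 0 where all 15 were fitted. DDX10, a helicase of small-subunit assembly, had signals of 1541, 1463 and 1522 in control IPs 1 to 3 and 935, 842 and 1050.1 in Stau1 IPs 1 to 3. All 3 Stau1 IP arrays, array 2 included, lay below all control IP arrays. The normalized log2 signal was 10.76 ± 0.16 (SD, n = 3) in the control IPs and 10.07 ± 0.02 in the Stau1 IPs, a difference of -0.69 with a 95% interval from -0.90 to -0.48. In limma its unadjusted p was 0.000249 and its adjusted p 0.138, the lowest of the helicases. Without both arrays numbered 2 the difference was -0.79, a fold of 1.73.

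DDX18, which acts on the large subunit, had signals of 2766, 2454 and 2488 in the control IPs and 1508, 1737 and 1885 in the Stau1 IPs. The groups did not overlap, and the log2 fold change was -0.57 ± 0.11 (SE, n = 3 per group) with an adjusted p of 0.215 by limma, and -0.71 without both arrays numbered 2. DDX47, a further nucleolar helicase, had signals of 6041, 4558 and 4051 in the control IPs and 2816, 3701 and 3231 in the Stau1 IPs. Again no Stau1 IP array reached a control IP array, although the control IP arrays were spread widely, and the log2 fold change was -0.56 ± 0.17 with an adjusted p of 0.399, and -0.74 without both arrays numbered 2. Its unadjusted p in limma was 0.0159, and it was 0.0536 without Stau1 IP array 1 and 0.0527 without array 3. DDX52 and DDX55, described after their values were seen, are also ribosome biogenesis helicases. DDX52 had signals of 503, 486 and 444 in the control IPs and 296, 297 and 309.9 in the Stau1 IPs, a log2 fold change of -0.59 ± 0.13 with an adjusted p of 0.258, and of -0.77 without both arrays numbered 2. The Stau1 IP arrays were alike, and 1 of them missed the detection threshold. DDX55 had signals of 751, 837 and 735 in the control IPs and 660.3, 357 and 718 in the Stau1 IPs, so that the lowest value came from the array labelled Stau1 IP 2. Its log2 fold change was -0.43 ± 0.13 with all arrays and -0.32 without both arrays numbered 2.

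Not all nucleolar helicases lay lower. DDX56, which acts in large-subunit assembly, had signals of 2563, 3113 and 4002 in the control IPs and 4311, 5079 and 4418 in the Stau1 IPs. Each Stau1 IP array was above each control IP array, and the log2 fold change was 0.47 ± 0.16 with an adjusted p of 0.474 by limma. Its unadjusted p of 0.0266 became 0.0771 without control IP array 1, 0.083 without control IP array 2, and 0.0652 and 0.0667 without Stau1 IP arrays 1 and 2. Without both arrays numbered 2 its log2 fold change was 0.35 with an unadjusted p of 0.143 by limma. DHX37, the helicase that releases the U3 snoRNA, had 655, 1141 and 1400.3 in the control IPs and 1257, 1365 and 1413 in the Stau1 IPs. The groups overlapped and the difference of 0.31 ± 0.23 had an adjusted p of 0.817 and was 0.24 without both arrays numbered 2. DDX54 had 353, 565 and 427 in the control IPs and 578, 340.5 and 699 in the Stau1 IPs, where array 2 lay near the control IPs after normalization and the log2 fold change was 0.18 ± 0.13 with an adjusted p of 0.819, and 0.37 without both arrays numbered 2. DDX21, which couples rRNA transcription to processing, had 1566, 1932 and 1315 in the control IPs and 1593, 602 and 1753 in the Stau1 IPs. Its log2 fold change of -0.37 ± 0.30 rested on Stau1 IP array 2, and without both arrays numbered 2 it was 0.04. Its paralogue DDX50, named after its values were seen, had 1065, 1089 and 1167 in the control IPs and 910.5, 788 and 1039 in the Stau1 IPs, with no overlap and a log2 fold change of -0.31 ± 0.08 that was -0.39 without both arrays numbered 2.

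**Figure D3:**
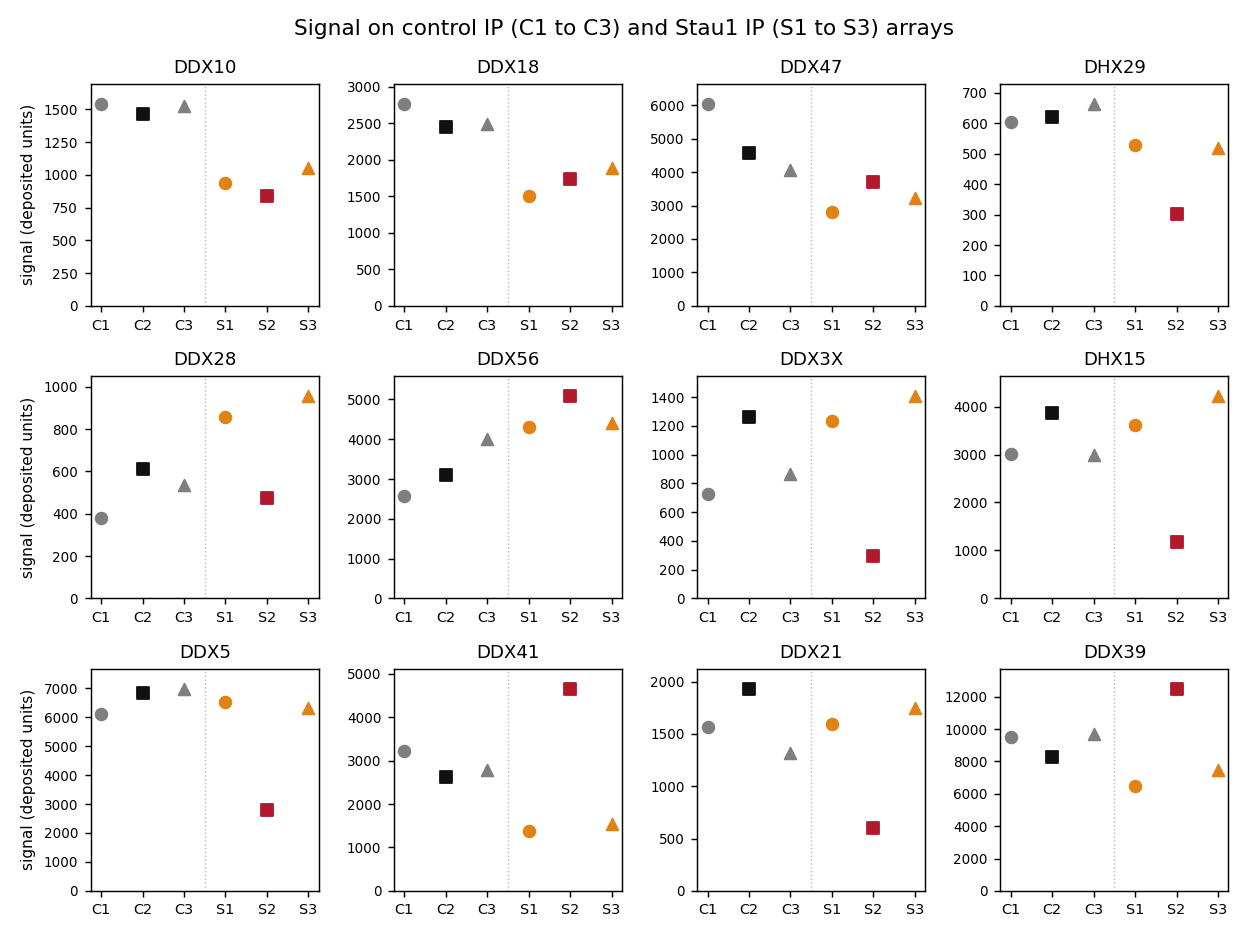
Deposited signal of 12 helicases on control IP arrays 1 to 3 (C1 to C3) and Stau1 IP arrays 1 to 3 (S1 to S3), each panel from 0 and without normalization. In DDX10, DDX18, DDX47 and DHX29 all Stau1 IP arrays lie below the control IP arrays, whereas in DDX3X, DHX15, DDX5, DDX41, DDX21 and DDX39 the array labelled Stau1 IP 2 is far from the other Stau1 IP arrays.

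The spliceosomal helicases did not lie to one side by the labels. Of the 10, 5 were above 0 and 5 below, with a median of -0.02 that changed sign under some settings, and 1 was lower and 0 higher at an unadjusted p under 0.05 in limma, where 5.02% of all targets were lower and 3.9% higher. That 1 was DDX42, which binds the U2 snRNP protein SF3B1, with signals of 826, 749 and 810.5 in the control IPs and 564, 565 and 595 in the Stau1 IPs. The deposited signals did not overlap, the normalized ones did, and the log2 fold change was -0.42 ± 0.14 with an adjusted p of 0.478, and -0.65 without both arrays numbered 2. It was detected on 4 of 6 arrays in spite of these signals. DDX41, found in catalytically active spliceosomes, had the widest spread of the helicases in the Stau1 IPs, with 3231, 2622 and 2773 in the control IPs and 1377, 4652 and 1542 in the Stau1 IPs. The array labelled Stau1 IP 2 was the highest of the 6 and the other Stau1 IP arrays were the lowest. Its log2 fold change was -0.44 with a 95% interval from -1.60 to 0.72, and without both arrays numbered 2 it was -1.09, a fold of 2.12.

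DHX15, which takes apart spent spliceosomes, showed the reverse order. Its signals were 3003, 3869.6 and 3000.2 in the control IPs and 3610.5, 1185 and 4214 in the Stau1 IPs. Array 2 was the lowest of the 6, so that the log2 fold change was -0.29 ± 0.42 with all arrays and 0.29 without both arrays numbered 2. DDX39, a close relative of the export factor UAP56, had 9491, 8247 and 9675 in the control IPs and 6513, 12493 and 7498 in the Stau1 IPs. As for DDX41, array 2 was the highest, and the value of -0.08 with all arrays became -0.44 without both arrays numbered 2. DHX35, seen in the same late spliceosomes, had 278, 342 and 294 in the control IPs and 428, 263 and 439 in the Stau1 IPs, with log2 fold changes of 0.21 and 0.30 in these fits. DDX46, the helicase that settles the U2 snRNP on the branch site, had 134, 229 and 145 in the control IPs and 235, 104 and 220.2 in the Stau1 IPs, and it was not detected on 1 Stau1 IP array. Array 2 of each group sat with the other group or beyond it, and the log2 fold change was 0.04 with all arrays and 0.43 without both arrays numbered 2. DDX23, which frees the 5′ splice site from U1, had 1020.1, 910.2 and 1383 in the control IPs and 972, 1218 and 1061 in the Stau1 IPs. Its groups overlapped, and the log2 fold change was -0.08 with all arrays and -0.42 without both arrays numbered 2. DHX8, which releases spliced mRNA, had 269, 265 and 332 in the control IPs and 284, 315 and 291 in the Stau1 IPs, also with overlap and with values of 0.03 and -0.26 in the same fits.

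Among 7 helicases of translation, mRNA decay and export, 5 were detected on all 6 arrays and 1, DHX29, was lower at an unadjusted p under 0.05 in limma, with 0 higher. At that p 5.02% of all targets and 13% of detected targets were lower, and 3.9% and 9.37% were higher. DHX29, which helps the small ribosomal subunit along structured 5′ leaders, had signals of 603, 622 and 664 in the control IPs and 529, 301 and 518 in the Stau1 IPs. All Stau1 IP arrays were below the control IPs, array 2 by the most, and the log2 fold change was -0.48 ± 0.13 with an adjusted p of 0.361. It was -0.46 without both arrays numbered 2. DHX36, which opens G-quadruplexes, had 351, 389 and 305 in the control IPs and 314, 158 and 333 in the Stau1 IPs. After normalization the groups did not overlap, and the log2 fold change of -0.45 ± 0.21 had an adjusted p of 0.644 and became -0.24 without both arrays numbered 2.

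DDX3X, which promotes translation of mRNAs with structured leaders, had 726, 1261 and 865 in the control IPs and 1231, 292 and 1405 in the Stau1 IPs. Array 2 of each group again sat with the other group or beyond it. Its log2 fold change was -0.18 with a 95% interval from -1.34 to 0.97, and without both arrays numbered 2 it was 0.49, a fold of 1.40. DDX19B, which strips proteins from mRNAs at the nuclear pore, had 1913, 1628 and 1766 in the control IPs and 1203, 2282 and 1379 in the Stau1 IPs. Array 2 was the highest, and the log2 fold change was -0.22 with all arrays and -0.65 without both arrays numbered 2. DDX19B, DDX19A and the target named DDX19-DDX19L are near-identical in sequence, as are DDX11 and DDX12, and how the signal of a probe divides between such copies is uncertain. DDX6, which represses translation and assists decapping, lay near background with 93.7, 114 and 94.7 in the control IPs and 114, 103 and 119.9 in the Stau1 IPs. It was detected on 0 control IP arrays and 2 Stau1 IP arrays, the groups overlapped, and the log2 fold change was 0.07 with a 95% interval from -0.04 to 0.18 and an adjusted p of 0.776. It was 0.13 without both arrays numbered 2.

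The coregulators of transcription were all detected on all 6 arrays, and DDX5 and DDX1 were far lower on the array labelled Stau1 IP 2 than on any other. DDX5, a coactivator also known as p68, had 6118, 6847 and 6981 in the control IPs and 6539, 2806 and 6318 in the Stau1 IPs. On the array labelled Stau1 IP 2 it was 1.15 lower on the log2 scale than the mean of control IP arrays 1 and 3, and the log2 fold change of -0.40 ± 0.32 became -0.04 without both arrays numbered 2. DDX1, a part of the tRNA ligase complex, had 4783, 5569 and 4924 in the control IPs and 4916, 2836 and 5287 in the Stau1 IPs, with the same single low array and log2 fold changes of -0.25 and 0.03. DDX17, the p72 relative of DDX5, varied less, with 743, 836 and 866 against 848, 655 and 850.1, and its log2 fold change of -0.08 ± 0.07 had an adjusted p of 0.856 and was -0.14 without both arrays numbered 2. DDX20, the Gemin3 subunit of the SMN complex that builds snRNPs, is named after its values were seen and had 199.6, 216 and 199.2 in the control IPs and 185, 181 and 186 in the Stau1 IPs. Its deposited signals did not overlap and its normalized ones did, with a log2 fold change of -0.16 ± 0.06 with an unadjusted p of 0.0477 and an adjusted p of 0.554 by limma, and of -0.24 without both arrays numbered 2.

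Both mitochondrial ribosome assembly helicases were detected on all arrays. DDX28 had the highest log2 fold change of the helicases, 0.48 with a 95% interval from 0.10 to 0.85, an unadjusted p of 0.0207 and an adjusted p of 0.438 by limma. Its signals were 379, 612 and 535 in the control IPs and 859, 473 and 955 in the Stau1 IPs. The deposited signals overlapped because of array 2, and the normalized ones, at 9.32 ± 0.18 (SD, n = 3) and 9.79 ± 0.24, did not. Without both arrays numbered 2 its difference was 0.65, and with 1 array left out its unadjusted p was 0.061 without control IP array 1 and 0.0673 and 0.0677 without Stau1 IP arrays 1 and 3. DHX30 had 1174, 1251 and 1537 in the control IPs and 1281, 1798 and 1421 in the Stau1 IPs, and its value changed from 0.11 to -0.18 without both arrays numbered 2.

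Antiviral and germline helicases lay near background. DDX58, the cytosolic sensor RIG-I, was detected on 1 Stau1 IP array only, with 99.5, 109 and 91.2 in the control IPs and 102, 107 and 117 in the Stau1 IPs. The groups overlapped, and the log2 fold change was 0.05 with a 95% interval from -0.03 to 0.14, and 0.06 without both arrays numbered 2. DDX60, DHX58, also known as LGP2, and the germline helicases DDX4, the human Vasa, DDX25, DDX43 and DDX53 were not well above background on any array. Of the other helicases, DHX40, DDX59 and DHX32 are named after their values were seen. DHX40 had signals of 558, 625 and 446 in the control IPs and 408, 351 and 494 in the Stau1 IPs. DDX59 had 208, 179 and 158 in the control IPs and 138, 132 and 148 in the Stau1 IPs. DHX32 had 1079, 1396 and 1169 in the control IPs and 1151, 832 and 1242 in the Stau1 IPs. The deposited signals overlapped for DHX40 and DHX32 and did not for DDX59. They had log2 fold changes of -0.34, -0.34 and -0.22 with unadjusted p-values of 0.0125, 0.024 and 0.0321 and adjusted p-values of 0.367, 0.456 and 0.498 by limma. After normalization the 3 Stau1 IP arrays lay below the control IPs for each of them, and without both arrays numbered 2 their values were -0.36, -0.40 and -0.11. DDX59 was detected on 2 control IP arrays and 1 Stau1 IP array.

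Stau1 IP array 2 stood at an end of the 6 arrays for most detected helicases. Of the 39, it was the lowest for 10, or 25.6%, where 26.2% of targets detected on all arrays had it lowest, and the highest for 13, or 33.3%, where 28% had it highest. DHX15, DDX5, DDX3X and DDX21 were lower on it than on control IP arrays 1 and 3 by 1.20, 1.15, 1.13 and 1.00 on the log2 scale. DDX41 was higher on it by 0.55, while Stau1 IP arrays 1 and 3 were 1.09 lower than the same control IP arrays. Control IP array 2 was nearer to Stau1 IP arrays 1 and 3 than to control IP arrays 1 and 3 for 20 of the 39, or 51.3%, beside 47.2% of the targets. For 21 of them, or 53.8%, Stau1 IP array 2 was on the other side of control IP arrays 1 and 3 from Stau1 IP arrays 1 and 3, where this held for 43.3% of the targets. The shares of the helicases thus lay near those of all detected targets. The median SD within a group over the 39 was 0.16 in the control IPs and 0.25 in the Stau1 IPs, and the standard error between beads was a median of 3.61% of the signal.

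**Figure D4:**
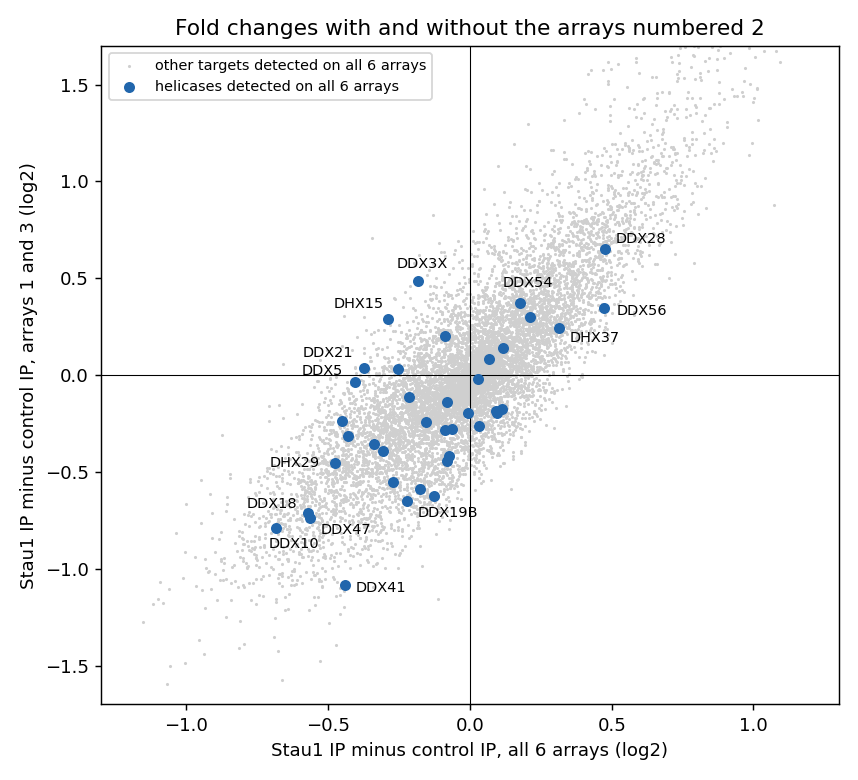
Log2 fold change of the 39 helicases detected on all arrays by limma with all 6 arrays (horizontal) and with arrays 1 and 3 of each group only (vertical), over the other such targets in grey, of which 91 lie outside the axes. The axes share 4 arrays. DDX10, DDX18 and DHX29 keep similar values, whereas DDX3X and DHX15 lie above 0 only on the vertical axis and DDX41 goes from -0.44 to -1.09.

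Without both arrays numbered 2, 4 arrays remained, and more helicases passed the adjusted p as lower than as higher. Control IP array 2 was left out of the fit only, and the 4 arrays stayed normalized to it. In this limma fit of 2 against 2 arrays, with the spread pooled over targets, 3 helicases passed the adjusted p as higher, or 5.45% against 3.71% of all targets, and 12 as lower, or 21.8% against 2.79%. Among targets detected on all 6 arrays the shares were 3 of 39, or 7.69%, against 11.1% as higher and 10 of 39, or 25.6%, against 9.49% as lower. No helicase passed the fold of the methods in this fit, where 0.602% of all targets passed as enriched and 0.037% as depleted. The 3 higher ones were DDX3X, DHX15 and DHX35, with adjusted p-values of 0.0309, 0.0468 and 0.0432. The lower ones were DDX10, DDX18, DDX24, DDX27, DDX52 and DDX55 of ribosome biogenesis, DDX39, DDX41 and DDX42 of the spliceosome, DDX19B, DHX29 and DDX50. DDX24 and DDX27, named after their values were seen, had log2 fold changes of -0.59 and -0.55 in this fit. With all arrays these were -0.18 and -0.27, with adjusted p-values of 0.933 and 0.765 by limma. DDX24 had signals of 4440, 3348 and 3789 in the control IPs and 2604, 5200 and 3028 in the Stau1 IPs. Its highest value came from the array labelled Stau1 IP 2. DDX27 had signals of 670.4, 675 and 719 in the control IPs and 505, 623 and 559 in the Stau1 IPs.

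These calls depended on the transformation and normalization. Of the 12 lower and 3 higher, neqc, which models the background differently, left 1 and 0, and that 1 was DDX27, with an adjusted p of 0.0215. Over the 5 ways of processing tried without both arrays numbered 2, the adjusted p ranged from 0.00724 to 0.0749 for DDX10, from 0.0172 to 0.138 for DDX18, from 0.02 to 0.13 for DHX29 and from 0.00894 to 0.0883 for DDX41. The values of DDX10 ran from -1.01 to -0.72 in the same 5. The 2 Stau1 IP arrays of this fit, 1 and 3, were the pair that differed least, and the part of that closeness in the calls was not tested.

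Helicases without a DDX or DHX symbol gave a mixed picture. Of 17 other RNA helicases listed, 16 were on the array and 12 were detected on all 6 arrays, and by limma 1 was higher and 1 lower at an unadjusted p under 0.05, with 0 past the adjusted p and a median of -0.008. At that p 3.9% of all targets and 9.37% of detected targets were higher, and 5.02% and 13% were lower. In the fit without both arrays numbered 2, 0 passed the adjusted p as higher and 2 as lower. There 3.71% of all targets and 11.1% of detected targets passed as higher, and 2.79% and 9.49% as lower. The lower one with all arrays was EIF4A2, a DEAD box helicase that joins the cap-binding complex, with signals of 4236, 3884 and 3618 in the control IPs and 2622, 2438 and 2552 in the Stau1 IPs. Its arrays did not overlap and array 2 did not stand apart, and the log2 fold change was -0.59 ± 0.08 with an adjusted p of 0.149. Without both arrays numbered 2 it was -0.64 with an adjusted p of 0.0427. The other one to pass there was BAT1, the export factor UAP56, with 3921, 3757 and 3830.4 in the control IPs and 3152, 5517 and 3481 in the Stau1 IPs. Its array 2 was the highest of the 6, and its value was -0.0020 with all arrays and -0.28 without both arrays numbered 2, with an adjusted p of 0.0376 in the latter. EIF4A1, the paralogue of EIF4A2, differed by -0.0095 ± 0.08 with all arrays and by -0.08 without both arrays numbered 2. UPF1, the helicase of nonsense-mediated decay, was the higher one, at 0.40 ± 0.14 with an adjusted p of 0.489, and at 0.51 with an adjusted p of 0.236 without both arrays numbered 2. Its signals were 243, 433 and 347 in the control IPs and 448, 357 and 606 in the Stau1 IPs. The deposited signals overlapped and the normalized ones did not.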

How the data were processed

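RNA of 3 control IPs and 3 Stau1 IPs was hybridized on Illumina HumanWG-6 V3 BeadChips. The authors deposited the mean bead signal intensity of each target as BeadStudio wrote it, without background subtraction or normalization and with the probes of a target combined. The deposited table also gives a detection p-value, the bead count and the standard error between beads. Illumina's probe sequences were not used here.

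From these intensities, the median of the negative controls (the median signal of the 200 targets with detection p nearest 0.5) was subtracted, a variance stabilizing transformation was fitted to the bead SD over 500 bins without the lowest 33.3% of signals, and every array was fitted to control IP array 2 with monotone splines of 10 knots. The transformation amounts to a shifted log2 scale, and its form was taken from earlier work on these data that had settled it after values were seen. All 37879 targets were fitted with limma 3.58.1 (lmFit and eBayes) in R 4.3.3 with mgcv 1.9.3. Calls used the fold of 2.5 and unadjusted p of 0.05 of the methods, with Benjamini-Hochberg adjustment over all targets beside them. Python 3.11.15 with matplotlib 3.10.9 made the figures. These steps were also run on simulated data with known changes. The simulated arrays were less spread than these and none was exchanged, so that run does not bear on the calls here. The number of arrays limits the precision.

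The helicases, the role lists and the 26 named ones were chosen with earlier results of these data known. Named ones passed the methods' threshold in either fit, had one of the 5 highest or lowest values among those detected on all 6 arrays in either fit, or were listed for their roles. Alternatives were other transformations and normalizations, detection filters, a 2-fold threshold, eBayes with trend, the t-test of the methods, the replicate block, each array left out, and both arrays numbered 2 left out. Deviations of same-numbered arrays correlated at -0.444, -0.768 and -0.387. An exchange of the arrays numbered 2 would also lower these values, so they cannot show whether the numbers pair the arrays. Some symbols are old, and the current RefSeq symbols of DDX39, DDX12, DDX58 and DDX26B are DDX39A, DDX12P, RIGI and INTS6L. The target DDX19-DDX19L now maps to DDX19A, which is also a target of its own and is counted separately.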

Additional observations from a re-analysis of the deposited data

How the results depend on the processing

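No helicase was enriched by the methods' threshold under any of the 25 alternatives. None was depleted either, except 1, DDX41, without both arrays numbered 2 with neqc, at -1.75, and with another constant in the transformation, at -1.48. The median log2 fold change of the helicases stayed below 0 in all of them, between -0.15 and -0.0089, and without normalization, where the median of all targets moved by 0.11, it was -0.02. The 2 helicases higher at an unadjusted p under 0.05 became 0 with median centring and with the methods' t-test, 1 with the replicate block, 1 with Stau1 IP arrays 1 and 3 averaged (added after seeing the data), and 7 in each of the 5 fits without both arrays numbered 2. The share of all targets, 3.9% at first, was 1.87%, 3.61%, 2.38% and 2.51% in these and 7.29% to 10.1% in the last 5. The 12 lower ones became 7 with median centring, 6 without normalization and 7 of 39 with only targets detected on all 6 arrays fitted. They became 20 without both arrays numbered 2 and 23 there with quantile normalization. The share of all targets fitted, 5.02% at first, was 4.29%, 2.3%, 9.93%, 8.51% and 9.14% in these. Of the 39, 9 were lower at first, beside 13% of targets detected on all 6 arrays. With 1 array left out, the counts of higher and lower helicases ran from 0 to 4 and from 8 to 20. The 20 came without Stau1 IP array 2, where 7.42% of all targets were lower. The 4 higher were reached without control IP array 3 and without Stau1 IP array 2, and the 0 without control IP array 1 and without Stau1 IP array 1. With the replicate block 9 were lower, beside 3.82% of all targets.

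Past the adjusted p, 0 by the labels became 3 higher and 12 lower without both arrays numbered 2, and there 2 and 12 with quantile normalization, 0 and 1 with neqc, 4 and 9 with median centring, and 0 and 4 with the other constant, and the count was 0 in every other alternative. The shares of all targets in these 5 fits were 3.71% and 2.79%, 3.76% and 3.36%, 0.422% and 0.235%, 4.4% and 1.99%, and 1.4% and 0.797%. Of 488 values of named helicases under alternatives other than single arrays left out, 456 kept their sign. Without both arrays numbered 2, in the order spline, quantile, neqc, median centring and other constant, DDX3X became 0.49, 0.46, 0.46, 0.59 and 0.59, DDX21 became 0.038, 0.018, 0.018, 0.096 and 0.058, DHX8 became -0.26, -0.27, -0.066, -0.15 and -0.19, DHX15 became 0.29, 0.28, 0.37, 0.25 and 0.38, and DHX30 became -0.18, -0.20, -0.26, -0.11 and -0.23. DDX1 became 0.033, 0.0066, 0.0080 and 0.056 in the first 3 and the last. With all arrays DHX8 turned to -0.039 with median centring, and with Stau1 IP arrays 1 and 3 averaged DDX39 turned to 0.052 and DDX46 to -0.10. With 1 array left out, DDX3X ran from -0.46 to 0.36, DHX15 from -0.55 to 0.21, DHX30 from -0.071 to 0.24, DDX46 from -0.14 to 0.30, DHX8 from -0.12 to 0.16, DDX23 from -0.27 to 0.11 and DDX39 from -0.35 to 0.069. Leaving out the background correction changes nothing by construction. The cause was not tested in any of these. Dim helicases near background have compressed changes.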
